A study of Xenopus tropicalis with 18 samples.

Results

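The coccyx was set against the hypochord at stage 61 in Xenopus tropicalis, using 6 of the series' 18 libraries. All libraries labelled stage 61 were taken, 3 of coccyx and 3 of hypochord, each numbered replicate 1, 2 or 3 in its label. The series design places the work in metamorphic climax, and every group carried the same genotype label (WT), with no treatment named. Pairs of both tissues from stage 56 (replicates 1 and 3), stage 58 (replicate 2) and stage 65 (replicates 1, 2 and 3) are used for comparison. The labels do not say whether the replicates are separate animals or pools of animals, so p-values here measure sample-to-sample spread that could be technical.

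The urostyle is a skeletal rod found only in frogs and toads. Its dorsal component, the coccyx, is vertebral and encloses the hind end of the spinal cord, while the hypochord is a rod of cartilage below the notochord that ossifies and joins the coccyx. Thyroid hormone drives this remodelling while the tail, its muscle and its notochord are lost. The comparison at stage 61 asks how the RNA of both components differed while the tadpole was in climax. The dissected regions can hold more than a single cell type, so a lower level can mean fewer cells of a type or less RNA per cell, which cannot be told apart. The files do not pair identifiers with gene names, and 0 identifiers were found in the RefSeq gene table at hand. Neither tissue label could therefore be checked against marker genes, no pathway could be counted, and no role is given to any gene.

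Replicates 1 and 2 share a list of 19921 genes. Replicate 3 lists 21458 identifiers numbered from 2 to 21459 in steps of 1. Over the 11315 identifiers found in both lists, the coccyx counts of replicates 1 and 3 had a Spearman's rho of 0.0046. Replicate 3 is therefore not joined to the others gene by gene, and its genes are described only within its own list. The 4 stage 61 libraries of replicates 1 and 2 held 4941137 to 7215011 counts, and the replicate 3 libraries held 11186152 in coccyx and 14862183 in hypochord. At an equal depth of 4941137 counts, 13232, 13244 and 13846 genes had a count in the coccyx libraries and 11587, 11552 and 9731 in the hypochord libraries of replicates 1, 2 and 3. The tissues did not overlap, and coccyx was higher in 3 of 3 pairs, with means of 13441 ± 351 and 10957 ± 1062 (SD, n = 3). These means mix the 2 lists, so their SD holds the difference between lists as well as that between samples. Without replicate 3 the means were 13238 ± 8.49 and 11569.5 ± 24.7 (SD, n = 2). An exact two-sided permutation test over both lists gave p = 0.1, the smallest that 3 against 3 allows. Exact swaps within pairs, which compare the tissues within a list, gave p = 0.25, the smallest that 3 pairs allow.

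Replicate 2 stood apart from the other stage 61 libraries, in both tissues, by the share of counts in its most abundant genes. Its 10 most abundant genes held 31.5% of the counts in coccyx and 33.7% in hypochord, against 11.8% to 18.9% in the other 4 libraries. Its coccyx library ranked genes most like its own hypochord library (Spearman's rho 0.918 across 14773 genes), and then like the hypochord library of replicate 1 (0.872) and the coccyx library of replicate 1 (0.868). The coccyx and hypochord libraries of replicate 1 had a rho of 0.830. It was 0.881 between the hypochord libraries of replicates 1 and 2, and 0.803 between replicate 1 coccyx and replicate 2 hypochord. By rank, the lowest values were thus those of the replicate 1 coccyx library. Of the 10 most abundant genes, 7 were the same in both tissues of replicate 2, 4 in replicate 1 and 6 in replicate 3, so on this measure replicate 2 was close to replicate 3. The levels and ratios below that rest on replicate 2 are therefore also given for each pair.

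The tissue difference was widest in replicate 3 and narrowest in replicate 2. Ratios of coccyx to hypochord were taken within each pair of libraries, on CPM, a gene's share of its library's total counts scaled to a common total, with 0.5 CPM added, for genes with a mean of at least 10 CPM in the pair. In replicate 1, 32.0% of 6311 genes differed by at least 2-fold and 13.1% by at least 4-fold. In replicate 2 these shares were 15.5% and 3.20% of 5003 genes. In replicate 3 they were 47.8% and 23.0% of 6561 genes. The SD of the log2 ratio was 1.69, 0.86 and 2.20 in replicates 1, 2 and 3. Each pair is a single library a tissue, so these shares have no replicate check of their own.

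Large differences went mostly towards coccyx in all 3 pairs. In replicate 1, 637 genes were at least 4-fold higher in coccyx and 188 in hypochord. In replicate 2 there were 134 and 26, and in replicate 3 there were 1110 and 396. Past 16-fold the lean was steeper, with 311 genes towards coccyx and 20 towards hypochord in replicate 1, 37 and 1 in replicate 2, and 616 and 66 in replicate 3. Coccyx thus held 94.0%, 97.4% and 90.3% of the genes past 16-fold.

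Differences between 2-fold and 4-fold leaned less to coccyx than the larger ones. In replicate 2 by total counts the gap was small, with 78.6% of genes in this range higher in coccyx against 83.8% past 4-fold. The tissue with the majority changed with the scaling in replicates 1 and 2, and was hypochord under both scalings in replicate 3. By total counts, 610 genes in this range were higher in coccyx and 582 in hypochord in replicate 1, 484 and 132 in replicate 2, and 763 and 866 in replicate 3. With TMM factors, which align the bulk of genes between libraries, the counts were 582 and 641, 255 and 272, and 492 and 1292, so hypochord held the majority in each of the 3 pairs. The change of scaling moved the median log2 ratio of all genes from 0.04 to -0.01 in replicate 1, from 0.19 to -0.07 in replicate 2 and from 0.11 to -0.38 in replicate 3. With the larger differences included, 61.8%, 79.6% and 59.7% of all genes past 2-fold were higher in coccyx by total counts, and 58.9%, 53.7% and 39.0% with TMM. Past 4-fold the share higher in coccyx moved from 77.2% to 75.9%, from 83.8% to 75.6% and from 73.7% to 52.3%. Past 16-fold it moved from 90.3% to 83.2% in replicate 3, and coccyx kept the majority in each pair under both scalings.

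**Figure D1:**
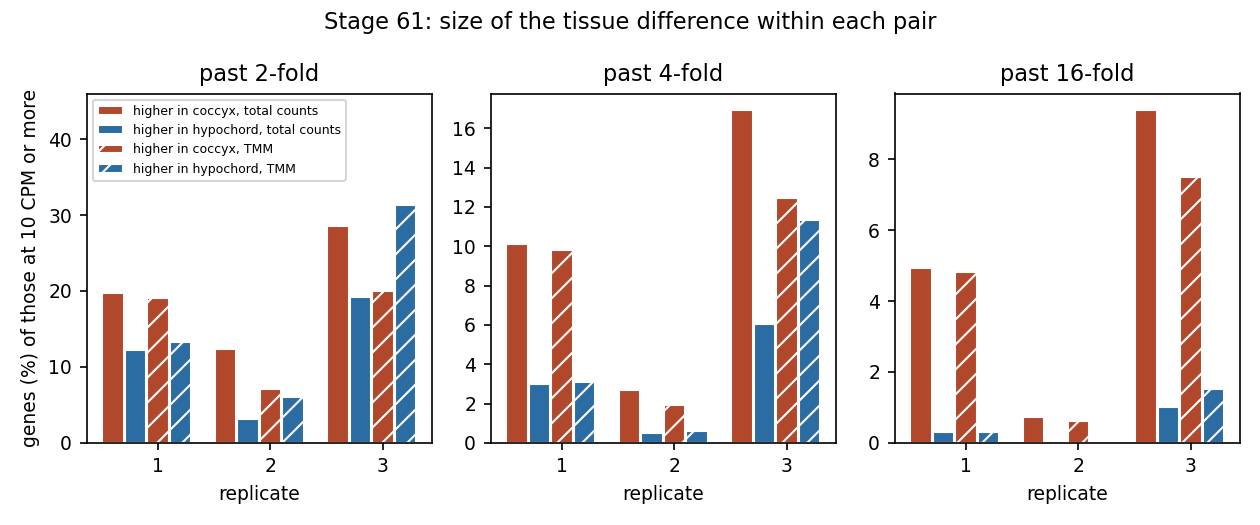
Share of genes (percent of genes with a mean of at least 10 CPM in the pair) past 2-fold, 4-fold and 16-fold at stage 61, for replicates 1, 2 and 3. Red bars are genes higher in coccyx and blue bars genes higher in hypochord, plain bars are scaled by total counts and hatched bars by TMM, and each bar is 1 pair of libraries; past 16-fold the red bars stand above the blue ones in each pair under both scalings.

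By total counts, scarce and abundant genes did not lean alike in replicate 1. In replicate 3, genes past 4-fold leaned to coccyx in every class by this scaling. The median log2 ratio of all genes in a class nevertheless went from 0.26 at 10 to 30 CPM to -0.24 at 1000 CPM or more. The classes were not counted with TMM. In replicate 1, of genes from 10 to 30 CPM, 341 were at least 4-fold higher in coccyx and 67 in hypochord, from 30 to 100 CPM 178 and 54, from 100 to 1000 CPM 104 and 48, and at 1000 CPM or more 14 and 19 of 157 genes. In replicate 2 the counts were 86 and 12, 29 and 7, 16 and 5, and 3 and 2 of 111 genes, from the scarcest class to the most abundant. In replicate 3 they were 685 and 242, 292 and 98, 122 and 52, and 11 and 4 of 149 genes. Past 4-fold, the most abundant class leaned to hypochord in replicate 1 and to coccyx in the other pairs, on few genes.

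Many genes were counted in coccyx and absent from hypochord, and few showed the reverse. In replicate 1, 746 genes had at least 10 counts in coccyx and 0 in hypochord, and 83 had the reverse. In replicate 2 there were 363 and 6. In replicate 3 there were 2335 and 90, although its hypochord library was the deeper of the pair. In replicates 1 and 2 together, 109 genes met the criterion for coccyx in both pairs and 1 met that for hypochord. At 0 counts a library of this depth allows up to 3 counts, or 0.202 to 0.607 CPM in the hypochord libraries, which covers counting error only. The hypochord libraries also held fewer genes at equal depth than the coccyx libraries, and the part of this in these counts was not tested.

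The rank of stage 61 among the stages was not the same in the separate lists. In replicate 3, the share of genes past 4-fold between the tissues was 23.0% at stage 61, above 3.94% at stage 56 and 7.68% at stage 65. In replicates 1 and 2, the shares at stage 61 were 13.1% and 3.20%, below 29.2% at stage 56 and 34.6% at stage 58, and those at stage 65 were 8.77% and 12.9%. Each value is a single pair of libraries, and these differences between stages have no test. The early hypochord libraries of replicates 1 and 2 held few genes at equal depth (7327 at stage 56 and 7206 at stage 58). In replicate 3 the stage 61 hypochord library held the fewest (9731, against 10681 at stage 56 and 12531 at stage 65). The widest differences of each list thus stood in pairs with few hypochord genes, but this order did not hold throughout. Stage 56 of replicate 3 had fewer hypochord genes than stage 65 and a smaller share. At stage 61 the hypochord libraries of replicates 1 and 2 held 11587 and 11552 genes, with shares of 13.1% and 3.20%. The part of the gene number in these shares was not tested.

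Genes with large ratios in one pair tended to have the same direction in the other. Among 6243 genes with a mean of at least 10 TMM-normalised CPM over the 4 libraries of replicates 1 and 2, 501 were at least 4-fold higher in coccyx in replicate 1. Of these, 375 (74.9%) were also higher in coccyx in replicate 2, against 47.6% of all 6243 genes. Of 192 genes at least 4-fold higher in hypochord in replicate 1, 134 (69.8%) were also higher in hypochord in replicate 2, against 52.4% of all. Starting from replicate 2, 197 of 231 genes (85.3%) kept the direction towards coccyx in replicate 1 and 33 of 39 (84.6%) kept that towards hypochord, against 48.7% and 51.3% of all. At least 4-fold in both pairs were 167 genes towards coccyx and 12 towards hypochord, and 5 genes passed 4-fold in opposite directions. A gene could enter this set through its level in the other pair. Genes were therefore also taken by the starting pair alone, by total counts. From replicate 2, 76.9% of 134 genes then kept the direction towards coccyx (against 48.4% of all) and 80.8% of 26 that towards hypochord (against 51.6%). From replicate 1 these were 85.4% of 637 (against 66.4%) and 56.9% of 188 (against 33.6%).

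The largest ratio of replicate 1 among the genes tested was not shared by replicate 2. ENSXETG00000016248, chosen after its values were seen, had 11492 TMM-normalised CPM in coccyx of replicate 1 and 2.34 in its hypochord, but 6.23 in coccyx and 13.0 in hypochord of replicate 2. At stage 65 it had 452 and 1036 CPM in coccyx and 5.17 and 51.4 in hypochord. Its level in coccyx was thus high in 3 of these 4 libraries and low in replicate 2 of stage 61, and it was not called between the tissues (edgeR's quasi-likelihood test, adjusted p = 0.824).

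Within replicate 3, genes with large ratios at stage 61 tended to keep their direction at stage 65. The 6561 genes with a mean of at least 10 CPM in the stage 61 pair were followed, so that no gene entered through its level at the other stage. Of the 1110 genes at least 4-fold higher in coccyx at stage 61, 882 (79.5%) were higher in coccyx at stage 65, against 48.7% of all 6561 genes. Of the 396 genes at least 4-fold higher in hypochord, 272 (68.7%) were higher in hypochord at stage 65, against 51.2%. At stage 56 the shares were 62.8% towards coccyx, against 51.1% of all, and 54.0% towards hypochord, against 48.3%. With genes taken by their mean over both pairs instead, the stage 65 shares were 68.3% of 1386 genes towards coccyx, against 46.8% of 6931 genes, and 74.0% of 338 towards hypochord, against 53.2%. Taking genes by the stage 61 pair was chosen after seeing the data.

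The fit of replicates 1 and 2 called 156 of 9729 genes between coccyx and hypochord at stage 61, which is 1.60% of the genes tested. The coccyx side held 142 of them (1.46%) and the hypochord side 14 (0.144%). The test was edgeR's quasi-likelihood test with the pair of libraries as a block, an adjusted p under 0.05, and the stage 65 pairs of replicates 1 and 2 included to estimate the spread. Without the block it called 1 gene, with 883 at an unadjusted p under 0.05, so the number of called genes rests on the pairing. Leaving out replicate 2 of stage 61 leaves 1 library a tissue there, and the spread then comes from stage 65 alone. Such a fit cannot show how far the number of called genes rests on replicate 2. Of all genes tested, 18.5% had both coccyx libraries above both hypochord libraries and 15.5% had the reverse.

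Most of the 142 genes higher in coccyx were scarce in hypochord, with median TMM-normalised CPM of 0.965 and 0.295 in replicates 1 and 2. Some were not, such as ENSXETG00000001141, with a mean log2 CPM of 7.62 over both tissues and a log2 fold change of 2.64. The 142 genes had a median log2 fold change of 6.15, against 0.05 for all genes tested. It was 5.51 when genes without hypochord counts are set to a bound of 3 counts over the group. No hypochord count was found at stage 61 for 25 of the 142, against 76 of all 9729 genes tested. Genes without hypochord counts passed the filter on low counts through coccyx alone. The 25 genes were at least 29.8-fold to at least 241-fold higher in coccyx by total counts. Of the 142 genes, 64 had 0 counts in at least 1 of the hypochord libraries, against 5.01% of all genes tested. By mean log2 CPM over both tissues (with 0.5 CPM added), which low hypochord values pull down, 91 of the 142 lay below 3. Another 37 lay between 3 and 5, 9 between 5 and 7, and 5 above. Of all genes tested, 3217, 3641, 2024 and 847 lay in these classes.

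The 14 genes higher in hypochord had smaller ratios and were counted in both tissues. Their log2 fold changes ran from -4.21 to -1.93, with a median of -2.37. In mean log2 CPM, 0 of them lay below 3, 4 between 3 and 5, 6 between 5 and 7, and 4 above. These classes held 3217, 3641, 2024 and 847 of all genes tested. All of the 14 genes had counts in coccyx at stage 61, as did all but 1 of the 9729 genes tested, so this does not set them apart.

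**Figure D2:**
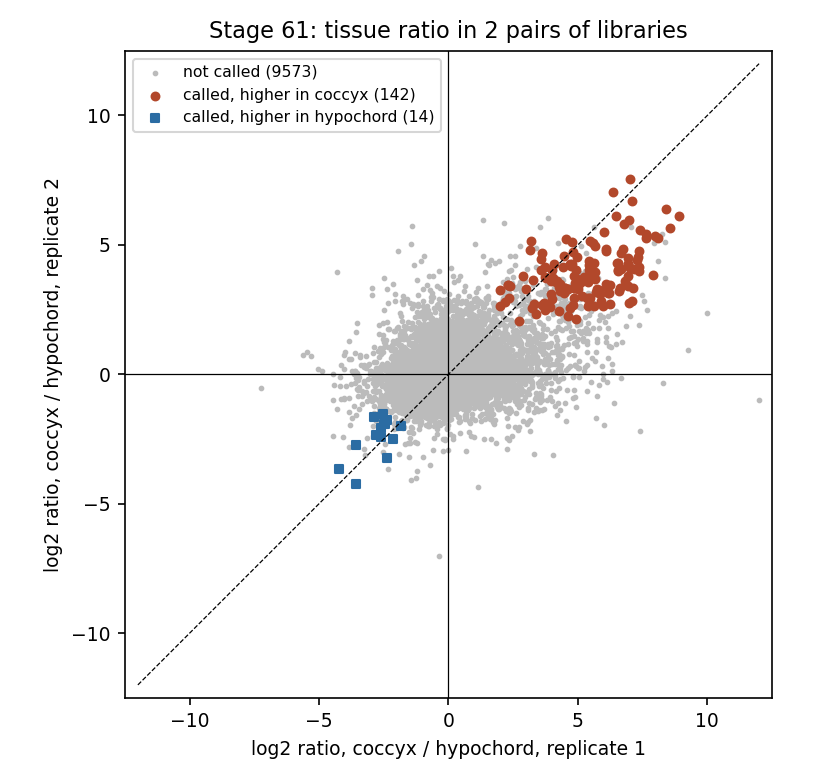
Log2 ratio of coccyx to hypochord (TMM-normalised CPM with 0.5 added) at stage 61 in replicate 1 (horizontal axis) and replicate 2 (vertical axis), 1 point for each of 9729 genes. Red points are the 142 genes called higher in coccyx, blue squares the 14 called higher in hypochord, and the dashed line marks equal ratios; most red points lie below the dashed line, where the ratio was larger in replicate 1.

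Ratios of all genes tested were narrower in replicate 2 than in replicate 1 (SD of the log2 ratio 1.08 and 1.57). The ratio of the called genes was likewise mostly larger in replicate 1. Of the 142 genes higher in coccyx, 119 had the larger ratio there, and their median log2 ratio was 5.40 in replicate 1 and 3.69 in replicate 2. Of the 14 genes higher in hypochord, 10 had the larger ratio in replicate 1, with medians of -2.56 and -2.19. These values chose the genes and are given as a description. Across all genes tested the pairs were less alike, since 57.6% had the same direction in both.

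ENSXETG00000025709 had the largest excess in coccyx when genes were ranked by the smaller of their ratios in both pairs, among called genes whose mean log2 CPM was 3 or higher. In coccyx it had 356 CPM in replicate 1 and 50.6 in replicate 2, and in hypochord 2.15 and 0 CPM, all TMM-normalised as for the other 3 genes of this ranking. Both coccyx libraries stood far above both hypochord libraries, although the coccyx libraries themselves differed. Its edgeR log2 fold change was 7.66 ± 0.69 (SE, n = 2 pairs, adjusted p = 0.00315). Summed over both pairs, 2169 reads in coccyx stood against 11 in hypochord, 170 times as many per total count (95% counting interval 94.6 to 340.3). At stage 65 it had 310.4 and 453 CPM in coccyx and 0.398 and 2.02 in hypochord, close to its levels in replicate 1 of stage 61. Earlier, it had 301 counts in coccyx and 0 in hypochord at stage 56, and 1661 and 3 at stage 58. It was thus counted in coccyx at all 4 stages and barely in hypochord.

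ENSXETG00000010142 was the second gene on the coccyx side. It had 1153 CPM in coccyx of replicate 1 and 164 in that of replicate 2, against 2.93 and 1.48 in hypochord, with no overlap of the tissues. Its edgeR log2 fold change was 7.88 ± 1.05 (SE, n = 2 pairs, adjusted p = 0.0190). The log2 fold change was 6.76 without replicate 1 of stage 61 and 8.61 without replicate 2. These fits keep 1 library a tissue at stage 61 and are read for effect sizes only. Summed over both pairs, 7019 reads stood against 20, 302 times as many per total count (95% counting interval 195 to 495). At stage 65 the coccyx libraries had 236 and 587 CPM, and the hypochord libraries had 1.99 and 53.0, so its hypochord level was low in 3 of these 4 libraries and higher in replicate 2 of stage 65. At stage 56 it had 588 counts in coccyx and 1 in hypochord, and at stage 58 it had 1734 and 10.

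ENSXETG00000021647 led the hypochord side of this ranking, and it is the gene of the 4 whose direction turned at stage 65. In replicates 1 and 2 of stage 61, hypochord was at 23.0 and 65.5 CPM and coccyx at 0.750 and 4.72. The hypochord libraries were both higher, and edgeR's estimate was a log2 fold change (coccyx relative to hypochord) of -4.21 ± 0.52 (SE, n = 2 pairs, adjusted p = 0.00801). Summed over both pairs, hypochord had 340 reads and coccyx 29, 13.6 times as many per total count (95% counting interval 9.32 to 20.7). By stage 65 hypochord was at 7.16 and 13.8 CPM and coccyx at 45.5 and 55.6, so coccyx was the higher tissue in both pairs. At stages 56 and 58 it also had more counts in coccyx (69 against 31, and 13 against 0), so the excess in hypochord was seen at stage 61 among the 4 stages.

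ENSXETG00000032045 was far more abundant at stage 61 than at stage 65 in both tissues. In replicates 1 and 2 of stage 61, hypochord was at 406 and 2096 CPM and coccyx at 33.4 and 109.7. The replicates differed widely in level, while hypochord exceeded coccyx in each pair (log2 ratios of coccyx to hypochord of -3.58 and -4.25). On the same scale its edgeR log2 fold change was -3.93 ± 0.46 (SE, n = 2 pairs, adjusted p = 0.00735). Summed over both pairs, hypochord had 9179 reads and coccyx 759, 14.1 times as many per total count (95% counting interval 13.1 to 15.2). The stage 65 hypochord libraries were at 18.3 and 27.5 CPM, and the coccyx libraries at 3.64 and 3.43. Before stage 61 it had 2857 counts in hypochord and 16 in coccyx at stage 56, and 49887 and 1386 at stage 58, so hypochord was the higher tissue at all 4 stages. Without the pairing as a block, 0 of these 4 genes were called (edgeR adjusted p of 0.141 to 0.163).

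**Figure D3:**
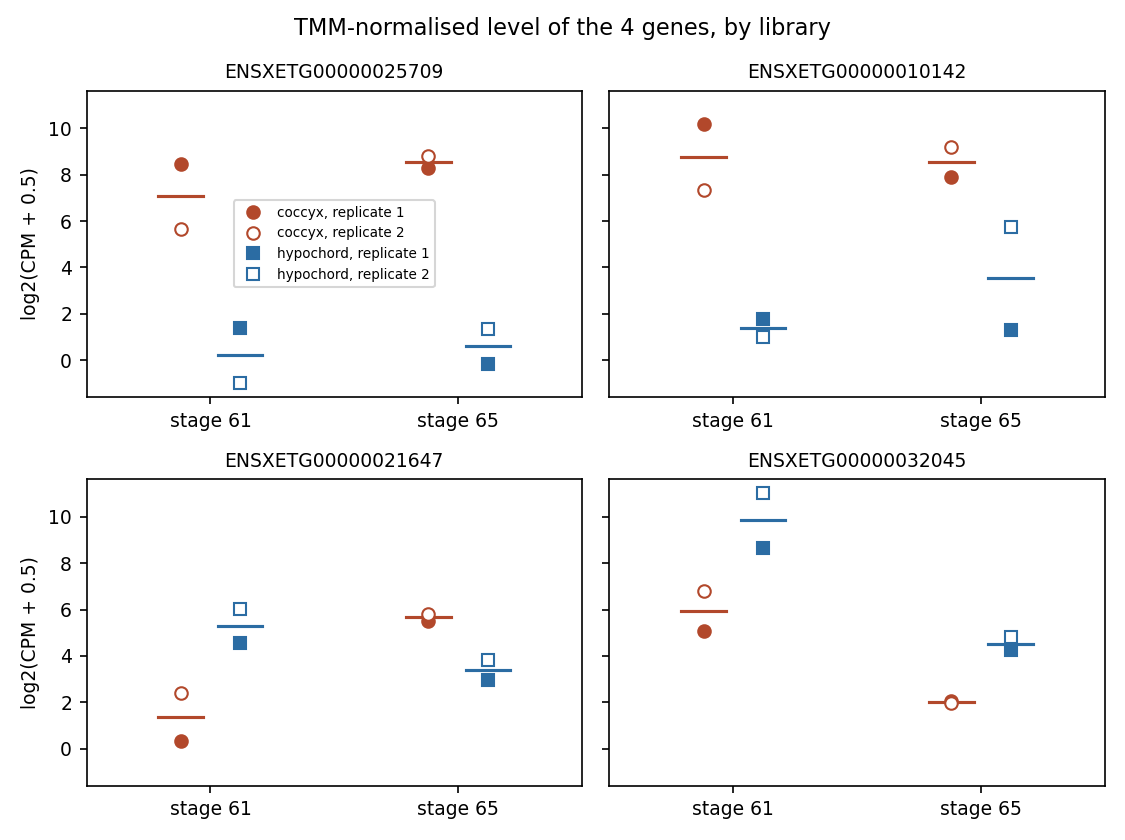
Level of the 4 genes as log2 of TMM-normalised CPM with 0.5 added (vertical axis) at stages 61 and 65 (horizontal axis). Red circles are coccyx and blue squares hypochord, filled for replicate 1 and open for replicate 2, and short lines mark the mean of 2 libraries; for ENSXETG00000021647 the hypochord points lie above the coccyx points at stage 61 and below them at stage 65.

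Stage 65, the stage with the most libraries to set beside stage 61, gave the called genes mostly the same direction. Of the 142 genes higher in coccyx at stage 61, 141 were higher in coccyx in both stage 65 pairs, against 35.1% of all genes tested, and 0 were lower in both. The stage 65 libraries entered the estimate of the spread and the TMM factors, and so had a small part in the stage 61 fold changes. For ENSXETG00000025709 the log2 fold change was 7.66 with them and 7.71 in the stage 61 libraries alone. In a fit of the stage 61 libraries alone, which used no stage 65 value, 111 of 114 genes called higher in coccyx were higher in coccyx in both stage 65 pairs. The 142 genes had median log2 ratios of 4.98 and 4.86 in the stage 65 pairs, between the medians of the stage 61 pairs.

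Most genes higher in hypochord also kept their direction at stage 65. Of the 14, 11 were higher in hypochord in both stage 65 pairs, against 28.9% of all genes tested, and the other 3 were higher in coccyx in both. Opposite directions of this kind, both stage 61 pairs one way and both stage 65 pairs the other, were found in 1034 of 9729 genes tested (10.6%). Of those 9729, 4122 had stage 61 pairs that differed in direction and so could not count. The 1034 thus lie among 2897 genes with both stage 61 pairs higher in coccyx and 2710 with both higher in hypochord. All of the 14 genes had both stage 61 pairs higher in hypochord. The median log2 ratio of the 14 genes was -1.26 and -1.05 in the stage 65 pairs, against -2.56 and -2.19 in those of stage 61, which had chosen them. With 2 genes called by the fit of the stage 61 libraries alone, 1 was higher in hypochord in both stage 65 pairs.

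**Figure D4:**
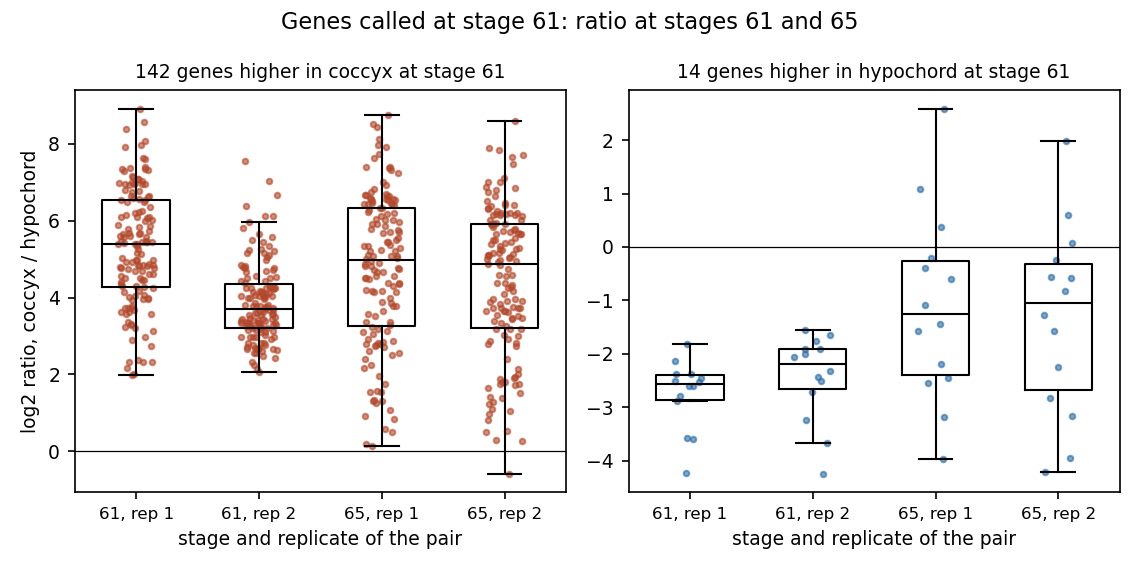
Log2 ratio of coccyx to hypochord (vertical axis) in each pair of libraries of stages 61 and 65 (horizontal axis) for the 142 genes called higher in coccyx (left) and the 14 called higher in hypochord (right) at stage 61. Points are genes, boxes span the quartiles with the median as a line, and whiskers reach the last point within 1.5 box lengths; the left boxes stay above 0 at stage 65, while 3 of the 14 genes on the right lie above 0 in both stage 65 pairs.

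Tested directly, the tissue difference at stage 61 was not shown to differ from that at stage 65 for any gene. The interaction of stage and tissue in edgeR's quasi-likelihood fit passed the adjusted threshold of 0.05 in 0 of 9729 genes (0.00%), and 488 genes had an unadjusted p under 0.05. With DESeq2 40 genes passed, and with limma voom 3. The strongest candidate, by p, was ENSXETG00000021647, with a difference of log2 fold changes of -6.53 ± 0.69 (SE, adjusted p = 0.0935 in edgeR). Its adjusted p ranged from 1.21e-09 to 0.99997 over 10 alternatives. For the other genes of the ranking the difference was -0.69 (ENSXETG00000025709, adjusted p = 0.971), 3.05 (ENSXETG00000010142, adjusted p = 0.956) and -1.27 (ENSXETG00000032045, adjusted p = 0.956) in the same edgeR fit. A p that misses the threshold does not show that the stages were alike.

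At the earlier stages the direction of the coccyx genes was also shared, beside a background that leaned the same way. Of the 142 genes, 140 were higher in coccyx at stage 56 and 140 at stage 58, against 70.7% and 72.4% of all genes tested, by total counts in 1 pair each. Of the 14 genes higher in hypochord, 12 were higher in hypochord at stage 56 and 9 at stage 58, against 28.6% and 27.4% of all. No hypochord counts were found for 83 of the 142 genes at stage 56 and for 56 at stage 58, against 30.1% and 28.5% of all genes tested.

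Levels differed between libraries on both sides of the difference. The 142 genes had median TMM-normalised CPM over 12 libraries of 60.7 and 13.3 in the stage 61 coccyx libraries of replicates 1 and 2, and of 0.965 and 0.295 in hypochord. Their coccyx medians at the other stages were 18.7 at stage 56, 53.6 at stage 58, and 40.5 and 78.2 at stage 65, so that of replicate 2 at stage 61 was the lowest of the 6. All genes tested had coccyx medians of 15.96 to 17.4 CPM, so the 142 genes lay above them in 5 coccyx libraries and below them in that one. Their hypochord medians were 0 at stage 56, 0.183 at stage 58, and 0.573 and 2.82 at stage 65, low throughout but with a wide relative range. They held 2.53% and 0.832% of all counts in the stage 61 coccyx libraries, and 0.0914% and 0.0504% in hypochord.

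The 14 genes higher in hypochord stood high in hypochord until stage 61 and lower at stage 65. Their hypochord medians were 106 CPM at stage 56, 137 at stage 58, 130 and 166 at stage 61, and 42.0 and 36.0 at stage 65. Both stage 61 hypochord libraries exceeded both stage 65 hypochord libraries for 12 of the 14 genes, against 20.7% of all genes tested, and since the stage 61 hypochord values chose these genes the share is a description. Their coccyx medians ran from 18.1 to 37.2 CPM over the 6 coccyx libraries. All genes tested had medians of 7.52 to 17.4 CPM, lowest in the stage 58 and stage 56 hypochord libraries.

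**Figure D5:**
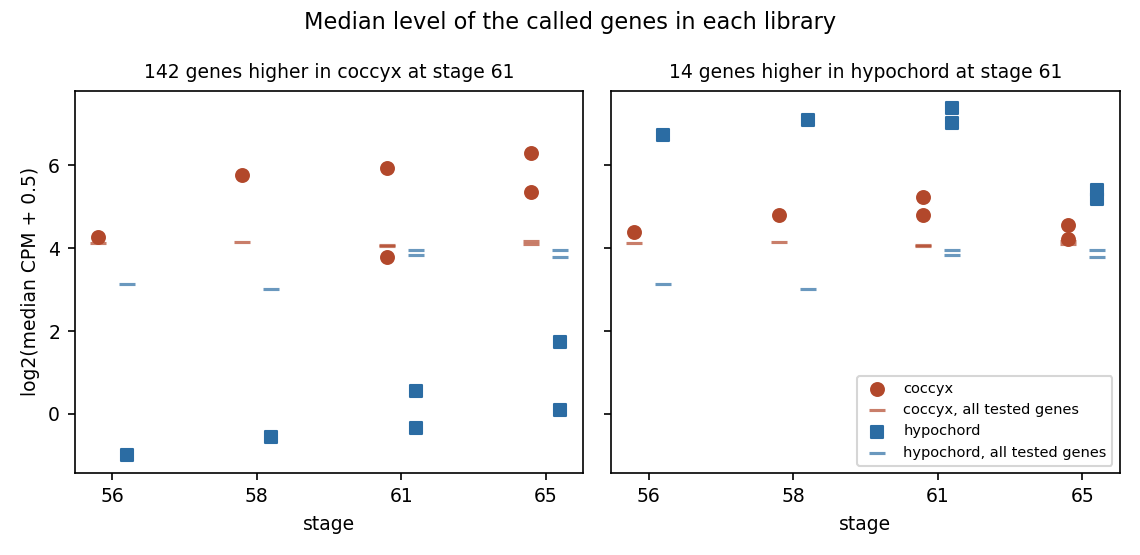
Median level (log2 of the median TMM-normalised CPM with 0.5 added, vertical axis) of the 142 genes called higher in coccyx (left) and the 14 called higher in hypochord (right) in each of 12 libraries of replicates 1 and 2, by stage (horizontal axis). Red circles are coccyx, blue squares hypochord and dashes the median of all genes tested in the same library; on the right the blue squares lie at 106 to 166 CPM up to stage 61 and at 42.0 and 36.0 CPM at stage 65.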

How the data were processed

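The deposited values are raw counts per gene, in 1 file a library, per the file headers and the values themselves. HTSeq 0.13.5, cutadapt 1.8.1 and FastQC are named in the submitters' processing notes. The choice of aligner, genome build, annotation and strand setting is not given in the sources used here, so overlapping or near-identical genes have uncertain counts. Per the labels' protocols, tissue was cut from frozen material by laser capture and amplified by PCR from very little RNA. No molecular identifiers are named, so intervals and floors cover counting error only. No stage 61 libraries held identical values (0 pairs).

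Counts of 8 libraries (replicates 1 and 2, stages 61 and 65) were fitted with edgeR 4.0.16 in R 4.3.3. The fit used TMM factors (0.606 to 1.41), filterByExpr by tissue over the 4 stage 61 libraries with a minimum count of 10, a block per pair of stage and replicate, a tissue effect per stage and robust quasi-likelihood. Adjustment was by Benjamini-Hochberg over all genes tested, and 2 residual degrees of freedom were left (common biological coefficient of variation 0.409). Library sizes for CPM are the sums over genes tested. Each standard error was approximated by dividing the fold change by the root of its F statistic. The same fit was also run on simulated data in which both tissues of a pair shared an effect, so that run cannot test the pairing.

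That replicate numbers pair the tissues is an assumption: the correlation of the tissues' deviations was 0.42 for stage 61 and 0.22 for stage 65, but 2 replicates cannot establish a pairing. The members, lists and tests were chosen with earlier results of these data known. Named genes were the 2 called genes in each direction with the largest smaller ratio of both pairs, a mean log2 CPM of 3 or higher and a pseudocount of 0.5 CPM. Planned gene lists were not run, since identifiers carry no names. DESeq2 1.42.0 and limma 3.58.1 served as alternatives.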

Additional observations from a re-analysis of the deposited data

Results flagged for a closer look

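ENSXETG00000021647 was picked out because both stage 61 pairs had hypochord above coccyx while both stage 65 pairs had coccyx above hypochord. The difference of its tissue log2 fold changes, stage 61 minus stage 65, was -6.53. In edgeR's interaction test its adjusted p was 0.0935, and it passed the threshold with DESeq2 (adjusted p = 1.21e-09), with limma voom (adjusted p = 0.0180) and without a filter on low counts in edgeR (adjusted p = 4.78e-06). It also passed with total counts, and missed it without the block and with RLE factors. Fits without a stage 61 or stage 65 replicate keep 1 library a tissue at that stage, so only their effect sizes are read. Over all alternatives the difference ran from -7.16 to -6.10. The stage 61 excess rests on 4 counts in coccyx of replicate 1 and 25 in that of replicate 2 at stage 61.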

How the results depend on the processing

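The number of genes called between the tissues at stage 61 (156) was 155 with RLE size factors and 116 in the 4 stage 61 libraries alone with the block. Of those 116 genes, 94 were among the 156. On the hypochord side the number fell from 14 to 2 in the stage 61 libraries alone, and on the coccyx side from 142 to 114. Most calls on the hypochord side were thus made only with the stage 65 libraries in the fit. The number of called genes was 1 without the replicate block and 0 in the stage 61 libraries alone without it (604 at an unadjusted p under 0.05). It was 515 without a filter on low counts, 15 with at least 10 counts in every stage 61 library, 444 with DESeq2 (364 higher in coccyx, 80 in hypochord), 326 with limma voom (255 and 71), and 252 with total counts in place of TMM (234 and 18), an alternative chosen after seeing the data, which moved the median log2 fold change from 0.05 to 0.21. Leaving out a stage 61 or stage 65 pair gave 128 to 1076. Each of these fits keeps 1 library a tissue at the stage that lost a pair. Without a stage 61 pair, the spread comes from stage 65 alone. These counts therefore cannot show how far the calls rest on either replicate of stage 61. The strict filter removes by rule any gene with under 10 counts in a stage 61 library, among them 3 of the 4 named: ENSXETG00000025709 and ENSXETG00000010142 through hypochord and ENSXETG00000021647 through coccyx. The pairing decided most calls: without the replicate block, the 4 named genes had log2 fold changes of 7.40, 8.18, -4.00 and -4.13 with edgeR adjusted p of 0.141 to 0.163.

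The count of genes whose tissue difference differed between stages 61 and 65 (0) was 40 with DESeq2, 3 with limma voom, 17 without a filter, 1 with total counts, and 0 to 238 when a pair was left out. It stayed 0 without the replicate block and with RLE. The fits with a pair left out keep 1 library a tissue at that stage, so their counts cannot show how far the result rests on a replicate. The difference of ENSXETG00000025709 between stages ran from -1.83 to 2.28 when a pair was left out, turning positive without replicate 1 of stage 61, where the remaining hypochord library had 0 counts. That of ENSXETG00000010142 ran from 0.97 without replicate 2 of stage 65 to 4.37 without replicate 1 of stage 65, and was 3.90 without replicate 2 of stage 61. The 4 fold changes at stage 61 kept their direction in each alternative run.

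With a minimum of 50 CPM, 39.3% of genes passed 2-fold and 15.6% passed 4-fold in replicate 3. With TMM within the pair, 51.3% passed 2-fold in replicate 3, and 13.1% passed 2-fold and 2.55% passed 4-fold in replicate 2. The difference in genes detected kept its direction without any 1 replicate and with at least 10 counts in place of equal depth. Differences of genes within 3 counts of 0 in both tissues are not detectable at this depth. The causes of these changes were not tested.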
